A study of Mus musculus with 2 samples.

Results

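The transcripts of 9 glycolytic enzymes, Gpi1, Aldoa, Tpi1, Gapdh, Pgk1, Pgam1, Eno1, Pkm and Ldha, were described across single CD4 T cells that recognise the 2W1S peptide. The members were given by symbol, and all 9 had a row among the 12432 genes of the deposited table. The list was chosen by measured values of these data, in which Pgk1 had stood out as lower in cells with Klf2 transcript, and it names Pgk1 together with 8 other enzymes of its pathway. Every value that relates the members to Klf2 is therefore given as a description, with no test. The 178 cells came from C57BL/6 mice in 1 group, labelled CA-2W1S colonization, in which recombinant Candida albicans carried the 2W1S model antigen. The cells had been sorted from spleen and peripheral lymph nodes, captured on a Fluidigm C1 instrument and amplified with SMART-Seq v4 chemistry, a chemistry that covers the full transcript and has no molecular identifiers. The 2 samples are labelled by month and are called captures here, and the dated prefixes of the cell names are called runs. Whether a month or a prefix was a single capture on the instrument is not given in the sources used here. The March capture held 82 cells, in runs Mar1 (25 cells) and Mar17 (57 cells). The April capture held 96 cells, in runs Apr13 and Apr21 (48 cells each). No uncolonized mice, other antigen specificity or other genotype was analysed here, and the number of mice behind a capture is not given in the sources used here.

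Glycolysis splits glucose into pyruvate in the cytosol, and Ldha then reduces pyruvate to lactate. Resting T cells keep low rates of glycolysis, and activated T cells raise the uptake of glucose and the level of these enzymes, partly through Myc and the hypoxia-inducible factor Hif1a, which binds DNA at the letters ACGTG. Klf2 is a transcription factor tied to quiescence and recirculation of T cells, and Stmn1 encodes stathmin, a tubulin-binding protein that is abundant in dividing lymphocytes.

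The values were deposited as log2 numbers and were read as log2 of a TPM-like value plus 1. Here the linear value is that number transformed back. The linear values of a cell summed to between 892206 and 979888, so each value is a share of the cell's measured signal and not a count of molecules. Among CD4 T cell markers, Cd3d, Cd3g and Lck reached a linear value of 1 in 100% of cells, Trac in 96.6% and Cd4 in 70.8%. Of 7 B cell markers 3 had a row. Ebf1 reached 1 in 88.8% of cells, Ighm in 61.8% and Pax5 in 14.0%. At the higher limit of 100, Ighm was found in 21.3% of cells, and Ebf1 and Pax5 in 0.562% each. Of 7 myeloid markers 2 had a row. Itgam reached 1 in 40.4% of cells and Csf1r in 2.81%, and they reached 100 in 0% and 2.25%. The CD8 T cell markers Cd8b1 and Cd8a reached 1 in 19.7% and 6.74% of cells, and 100 in 2.81% and 0%. In 3 cells of Mar1, mitochondrial transcripts held 65.8% to 93.9% of the signal; the highest share in any other cell was 38.2%. The labels name the captures only by month, so the spread between them may be technical.

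Gapdh, the enzyme that oxidises glyceraldehyde 3-phosphate, led the members, and Pgam1 and Tpi1 were lowest. On the log2 scale the capture means of Gapdh were 7.88 in March and 8.22 in April. Eno1, which makes phosphoenolpyruvate, had means of 7.08 in March and 6.60 in April. Ldha had 6.89 in March and 6.53 in April. These 3 enzymes filled the top of the order on the mean of the captures, and Gapdh was above Eno1 in all 4 runs. Aldoa, which cleaves fructose 1,6-bisphosphate, had 5.89 in March and 6.71 in April. Pkm, which makes pyruvate, had 5.79 in March and 6.57 in April. The gap between Eno1 and Ldha on the mean of the captures was 0.13 ± 0.09 (SD, n = 2), with Eno1 higher in 3 of the 4 runs. The gap between Aldoa and Pkm was 0.12 ± 0.03, with Aldoa higher in all 4, although each gene itself varied more between captures (SD 0.58 and 0.55). Gpi1, which interconverts glucose 6-phosphate and fructose 6-phosphate, had 4.61 in March and 3.62 in April. Pgk1, the first enzyme of the pathway to make ATP, had 2.71 in March and 3.10 in April. Gpi1 was higher than Pgk1 in 3 of the 4 runs. Tpi1, which interconverts the triose phosphates, had 1.19 in March and 1.52 in April. Pgam1, which moves the phosphate of 3-phosphoglycerate, had 0.90 in March and 1.18 in April. Tpi1 was above Pgam1 in 2 of the 4 runs, so their order was not settled. The order of genes assumes that the values had been divided by transcript length, as in TPM.

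**Figure D1:**
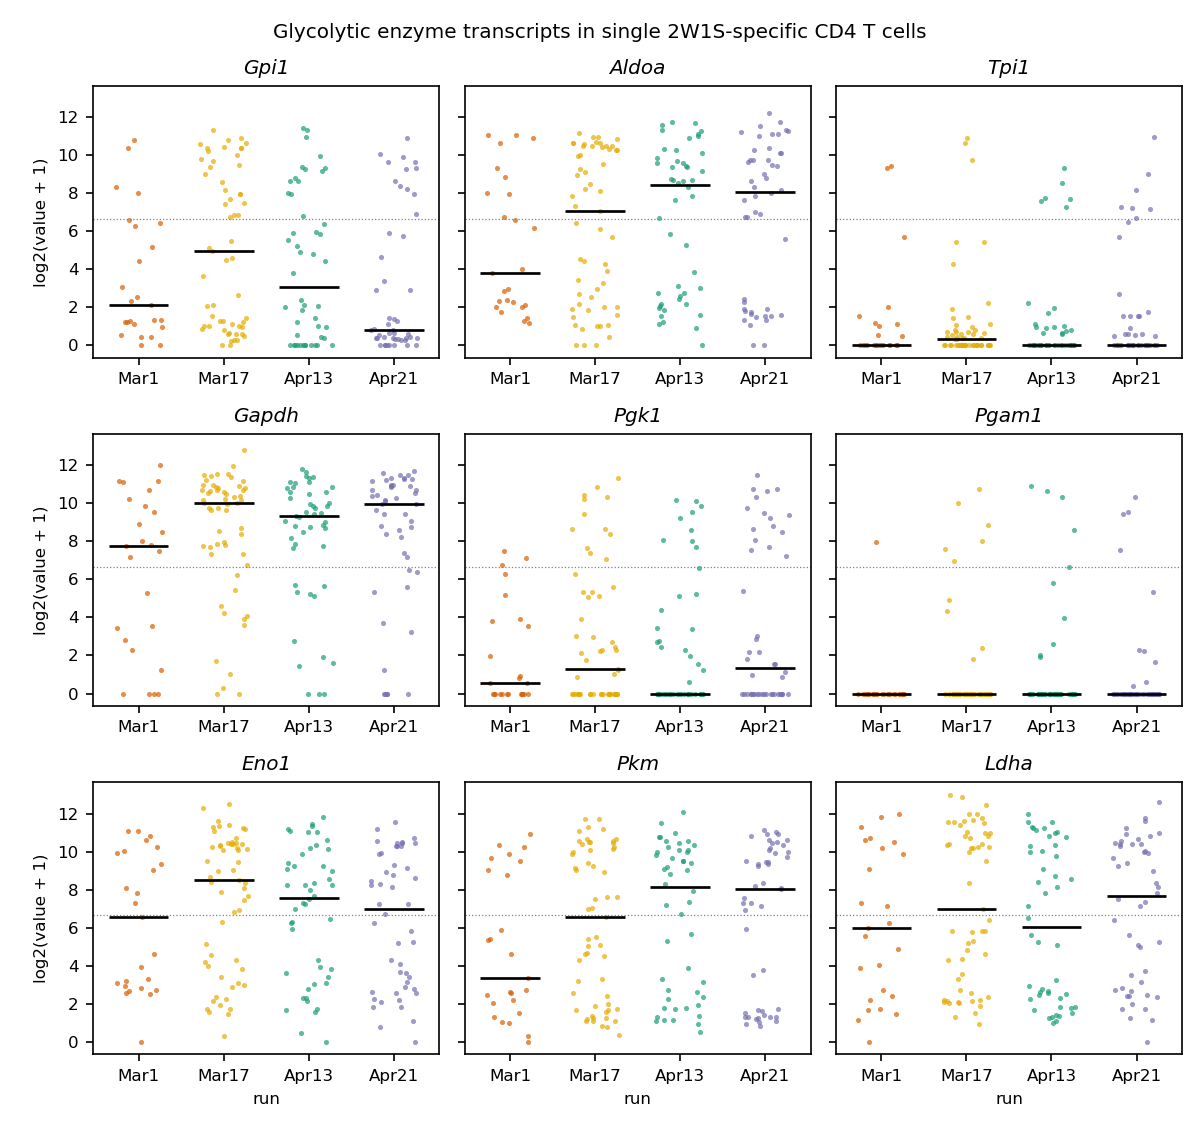
Values of the 9 enzymes in single cells, as log2(value + 1), by run (25 Mar1, 57 Mar17, 48 Apr13 and 48 Apr21 cells). Points are cells, the bar is the run's median and the dotted line marks a linear value of 100; Aldoa, Eno1, Pkm and Ldha split into a low and a high band, and most cells lie at 0 for Pgam1.

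Means hid a division of the cells. Pkm was at 0 in 1 cell, but 55 cells lay between 1 and 10 on the linear scale, 19 between 10 and 100, and 94 at 100 or more. Ldha had 55 cells between 1 and 10, 29 between 10 and 100 and 90 at 100 or more. For Aldoa the same bands held 57, 15 and 97 cells, and for Eno1 44, 26 and 102 cells. The middle band was thus the smallest of the 3 for each of these 4 enzymes. Gapdh reached 100 in 132 cells (74.2%, exact 95% interval 67.1 to 80.4%) and was at 0 in 14. Gpi1 spread over the bands more evenly, with 24 cells at 0, 37 above 0 but below 1, 37 from 1 to 10, 24 from 10 to 100 and 56 at 100 or more. Pgk1 was at 0 in 80 cells and reached 100 in 40 (22.5%, 16.6 to 29.3%). Tpi1 reached 100 in 18 cells (10.1%, 6.10 to 15.5%) and Pgam1 in 15 (8.43%, 4.79 to 13.5%), and Pgam1 was at 0 in 147. These intervals cover counting error over cells only.

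A cell rarely had all of the pathway at a high level. The median cell had 6 of the 9 enzymes at a linear value of at least 1 (range 3 to 9) and 4 at 100 or more. No enzyme reached 100 in 6 cells, 3 of them from Mar1, and 7 or more did so in 8 cells. All 9 enzymes reached 100 in 1 cell, which was from Mar17. The 9 enzymes together made up a median of 0.422% of a cell's signal, with run medians of 0.253% in Mar1, 0.470% in Mar17, 0.428% in Apr13 and 0.411% in Apr21. The lowest cell had 0.00325%. Gapdh was the highest of the 9 in 46 cells and Ldha in 46, followed by Aldoa in 28 and Eno1 in 26, while Pgk1 led in 7 cells and Pgam1 and Tpi1 in 3 each.

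**Figure D2:**
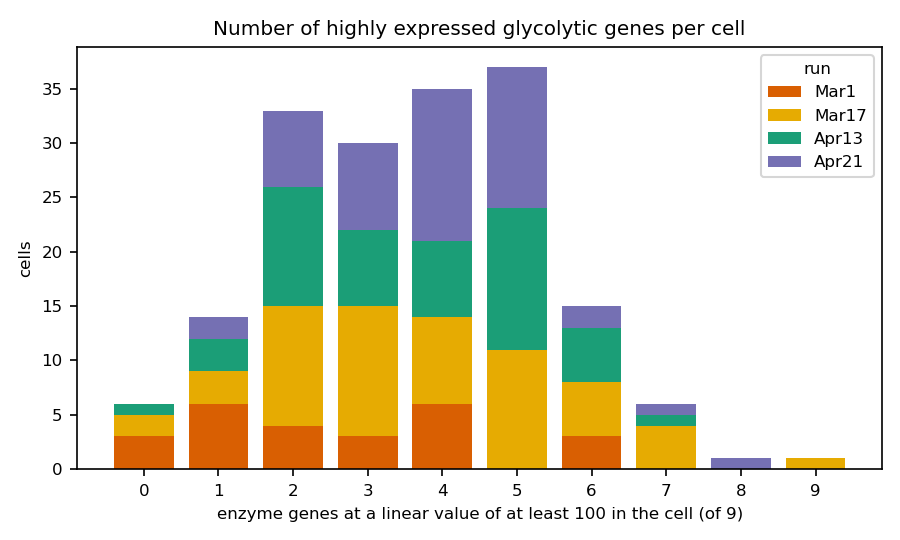
Number of the 9 enzyme genes at a linear value of 100 or more in a cell (x axis) against the number of cells (y axis), stacked by run. Most cells lie between 2 and 5 enzymes, 6 cells have none and 1 cell has all 9.

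Pgk1 (chrX:106187100-106203699, + strand, mm10) had to be read beside processed copies that carry the same coding sequence. Against the annotated transcripts of the mouse genome (GENCODE vM21, build mm10), the coding sequence of Pgk1 matched Pgk1-rs7 on chromosome 12 over 1253 bases and Gm5537 on chromosome 3 over 1252 bases, each with 0 mismatches, and both copies have a row in the table. The Gapdh copy Gm12033 on chromosome 11 differed from Gapdh at 1 of 1002 bases. Short stretches of both pairs are shown because they carry this likeness: the capital letter marks the base at which the Gapdh pair differs, and the Pgk1 pair (bases 8 to 56 of the coding sequence) has none.
Pgk1: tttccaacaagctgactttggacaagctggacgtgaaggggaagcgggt
Pgk1-rs7: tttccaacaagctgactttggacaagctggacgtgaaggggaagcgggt
Gapdh: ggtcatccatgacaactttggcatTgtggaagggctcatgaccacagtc
Gm12033: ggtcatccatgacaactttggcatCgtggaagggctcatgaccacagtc

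In single cells, signal sat in the Pgk1 row or in the rows of its copies, and seldom in both. Pgk1 reached a linear value of 1 in 87 cells and the summed copies did so in 84, but only 15 cells had both. Of the 80 cells with Pgk1 at 0, 63 had the copies at 1 or more, with a median there of 2.66 and a range of 1.13 to 135. Summing the 3 rows raised the number of cells at 1 or more to 158 (88.8%). The number of cells at 100 or more was 43 for the sum and 40 for Pgk1 alone, and 3 cells had the copies at 100 or more. The copies held 4.81% of the summed signal of these 3 rows. In 3 cells the Pgk1 value was above 0 but below 0.001, with 7.15e-09 the lowest. How the submitters' program divided reads among identical sequences is not given in the sources used here.

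By the number of cells at 0 that had copies at 1 or more, the other members were touched less than Pgk1. By share of signal, Pgam1 was touched more than Pgk1. Gapdh had 12 copies in the table of 177 annotated, and they held 4.68% of its family's signal, with 8 of the 14 cells at 0 for Gapdh having copies at 1 or more. The only copy of Pgam1 in the table, Pgam1-ps2 on chromosome 7, was identical over 765 bases and held 16.0% of the family's signal, but it reached 1 in only 3 of the 147 cells with Pgam1 at 0. For Eno1, Pkm and Aldoa the copies held 1.27%, 1.42% and 0.431%. Tpi1, Ldha and Gpi1 had no copy in the table.

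**Figure D3:**
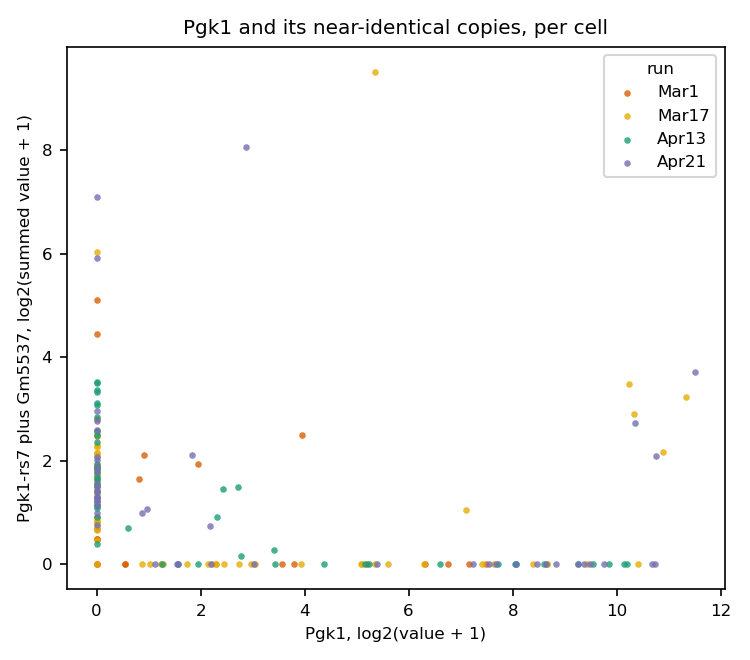
Pgk1 (x axis) against the sum of its copies Pgk1-rs7 and Gm5537 (y axis) in each of 178 cells, both as log2(value + 1), coloured by run. Most points lie on an axis: only 15 cells have both at a linear value of 1 or more.

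Coordination of the enzymes across the cells of a run was weak. The Spearman rho of a pair of members, averaged over the 4 runs, was positive for 33 of 36 pairs with a median of 0.09, while all pairs among 6049 genes detected in at least 25% of the cells of every run had a median of 0.03 and 62.7% positive. Pgam1 did not reach that limit of detection. The 28 pairs of the 8 members that did had a median of 0.09 and 89.3% positive. Gapdh and Pkm were the closest pair, with a mean rho of 0.30 and run values of 0.36 in Mar1, 0.31 in Mar17, 0.32 in Apr13 and 0.22 in Apr21. Aldoa with Gapdh had 0.21 and Gapdh with Ldha 0.20, both positive in all 4 runs. Ldha was not tied in this way to the other enzymes that filled a low and a high band: its mean rho was -0.01 with Pkm, -0.02 with Eno1 and -0.04 with Aldoa. The run median over pairs was 0.11 in Mar1, 0.15 in Mar17, 0.10 in Apr13 and 0.02 in Apr21. Genes of the actin and tubulin list had a median of 0.29, proliferation genes 0.13, oxidative phosphorylation genes 0.09 and the upper glycolysis and entry list 0.09, so a median near that of the members was also found for other lists. Cells of a run differ in the number of genes detected, and whether they were prepared together is not given in the sources used here. These values carry no test.

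**Figure D4:**
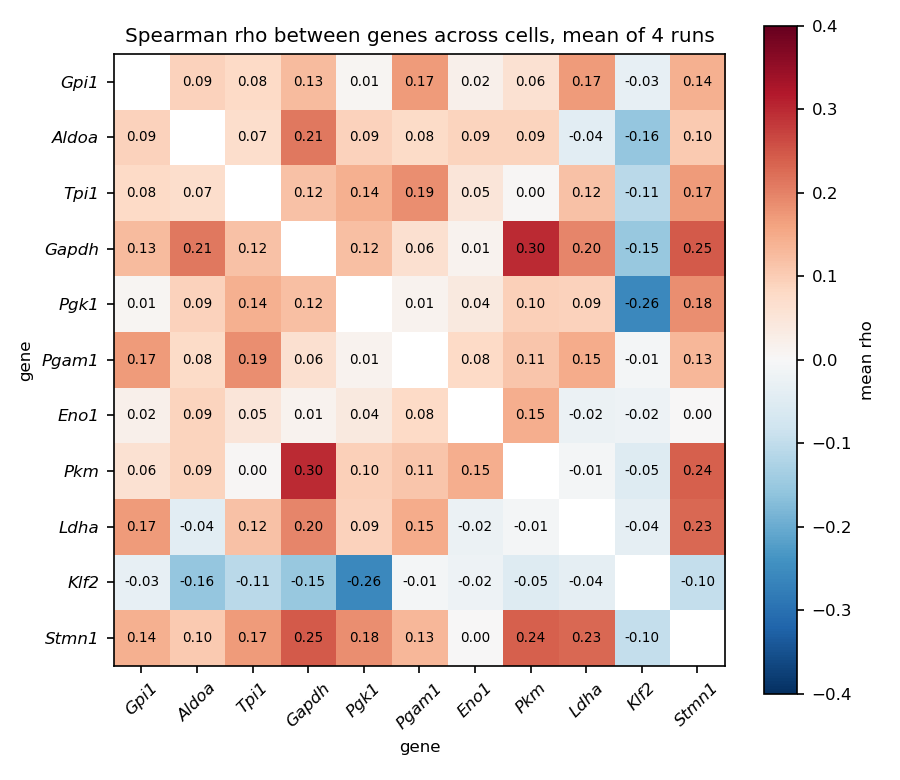
Spearman rho between the 9 enzymes, Klf2 and Stmn1 across cells, as the mean of the rho in 4 runs (colour and printed value). Gapdh with Pkm is the highest pair at 0.30, Pgk1 with Klf2 the lowest at -0.26.

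By the score of a cell, taken as the mean rank of its 9 enzymes within the run, the genes closest to the pathway were Rbm3, a cold-inducible RNA-binding protein (mean rho 0.39), the proteasome assembly factor Pomp (0.38), cytoplasmic actin Actg1 (0.38), the ATP synthase subunit Atp5mpl (0.37) and the replication helicase subunit Mcm6 (0.37). Hnrnpa1 (0.36), Pfn1 (0.35), Atxn10 (0.35), Impdh2-ps (0.34) and Tmem258 (0.34) completed the 10 highest among 1380 genes whose rho had the same sign in every run; the median over all 6041 genes ranked was 0.05. The 5 lowest of the 1380 were Crim1 (-0.29), Mmachc (-0.28), Snhg11 (-0.28), Sec14l1 (-0.27) and Gnaz (-0.27). All 17 oxidative phosphorylation genes had a positive rho with the score (median 0.18), as did all 14 proliferation genes detected in at least 25% of the cells of every run (0.19). The same held for all 7 genes of the actin and tubulin list (0.22) and all 7 CD4 T cell markers (0.14), so it was not particular to those 2 lists. Of 6 upper glycolysis and entry genes 4 were positive (0.04), and of 5 hypoxia targets 2 were (-0.05). The score itself had a mean rho of 0.31 with the number of genes detected in the cell and -0.19 with its mitochondrial share. With the number of genes detected removed, the 10 highest genes had mean rho values from 0.29 (Tmem258) to 0.35 (Actg1). The 5 lowest then ran from -0.35 (Crim1) to -0.28 (Gnaz). The part of the mitochondrial share in the neighbours was not tested.

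The first question across classes of cells was whether the enzymes differed in cells with high Stmn1. Stmn1-high cells were those in the upper 25% of their run with a value above 0, 19 of 82 in March and 24 of 96 in April. In March these were all 19 cells with a Stmn1 value above 0, and in April 33 cells had one. Many values were low: 4 cells of Mar17 were above 0 but below a linear value of 1, and the highest in Mar1 was 24.2. Over all 178 cells, 12 had Stmn1 at 100 or more. In Stmn1-high cells all 9 enzymes had a higher mean over the captures than in other cells, with a median difference of 1.34 on the log2 scale, against 0.14 over all 10794 genes tested, of which 66.5% were higher. Ldha was the only enzyme to pass limma with Benjamini-Hochberg adjustment over all genes; 19 of the 10794 genes passed, 0.176%. Stmn1 as the class gene was chosen with earlier results of these data known.

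Ldha (chr7:46841475-46855627, + strand, mm10) had capture means of 9.71 in March and 7.47 in April in Stmn1-high cells, against 6.05 in March and 6.22 in April in other cells. Both Stmn1-high means lay above both means of the other cells. The difference was 2.46 ± 0.54 (SE, limma, adjusted p = 0.0239), or 3.66 in March and 1.25 in April. In March 16 of 19 Stmn1-high cells (84.2%) had Ldha at a linear value of 100 or more, against 24 of 63 other cells (38.1%). In April 16 of 24 Stmn1-high cells (66.7%) did so, against 34 of 72 other cells (47.2%). By run the difference was 2.12 in Mar1, 4.02 in Mar17, 3.01 in Apr13 and -0.50 in Apr21, so Ldha was not higher in Stmn1-high cells of 1 of the 4 runs. The Stmn1-high class held only 4 cells in Mar1, 1 of them a mitochondrial cell, 15 in Mar17, 12 in Apr13 and 12 in Apr21. The call was lost under 8 of 12 other settings, over which the limma adjusted p ran from 0.0189 to 0.802. With the capture no longer a block it was 0.616; it was 0.510 when the 3 mitochondrial cells were left out and 0.166 when all Mar1 cells were, with differences of 2.46, 2.61 and 2.64.

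Pkm had means of 7.54 in March and 8.02 in April in Stmn1-high cells, against 5.26 and 6.09 in other cells. Its difference of 2.10 ± 0.54 did not pass (limma, adjusted p = 0.0712), and it was above 0 in all 4 runs, from 0.84 in Apr13 to 3.01 in Apr21. Pgk1 had means of 3.48 in March and 4.72 in April in Stmn1-high cells, against 2.48 and 2.55 in other cells. Its difference of 1.58 ± 0.53 (limma, adjusted p = 0.179) was 1.09 ± 0.56 when its copies were added. Gapdh, with 8.82 and 9.32 against 7.60 and 7.85, differed by 1.34 ± 0.47 (limma, adjusted p = 0.195). The Stmn1-high means thus stood above those of the other cells in both captures for Pkm, Pgk1 and Gapdh, without passing the threshold.

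Gpi1 and Tpi1 also had higher means in both captures, by 1.44 ± 0.56 and 1.28 ± 0.44 over the captures, with adjusted p of 0.273 and 0.186 by limma. Together with Ldha, Pkm, Pgk1 and Gapdh they made 6 of 9 members at an unadjusted p under 0.05, where 1161 of all 10794 genes were. Eno1 differed by 0.52 ± 0.53, and it was lower in the Stmn1-high cells of Mar1 (-1.56) and Apr21 (-1.32) and higher in those of Mar17 (1.34) and Apr13 (1.80). Aldoa and Pgam1 went in opposite directions in the captures: Aldoa differed by 2.43 in March and -0.43 in April, and Pgam1 by 2.07 in March and -1.22 in April. In April no Stmn1-high cell of 24 had Pgam1 at 100 or more, against 8 of 72 other cells, while in March 4 of 19 Stmn1-high cells and 3 of 63 other cells did. Whether the captures differ in these effects was not tested.

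**Figure D5:**
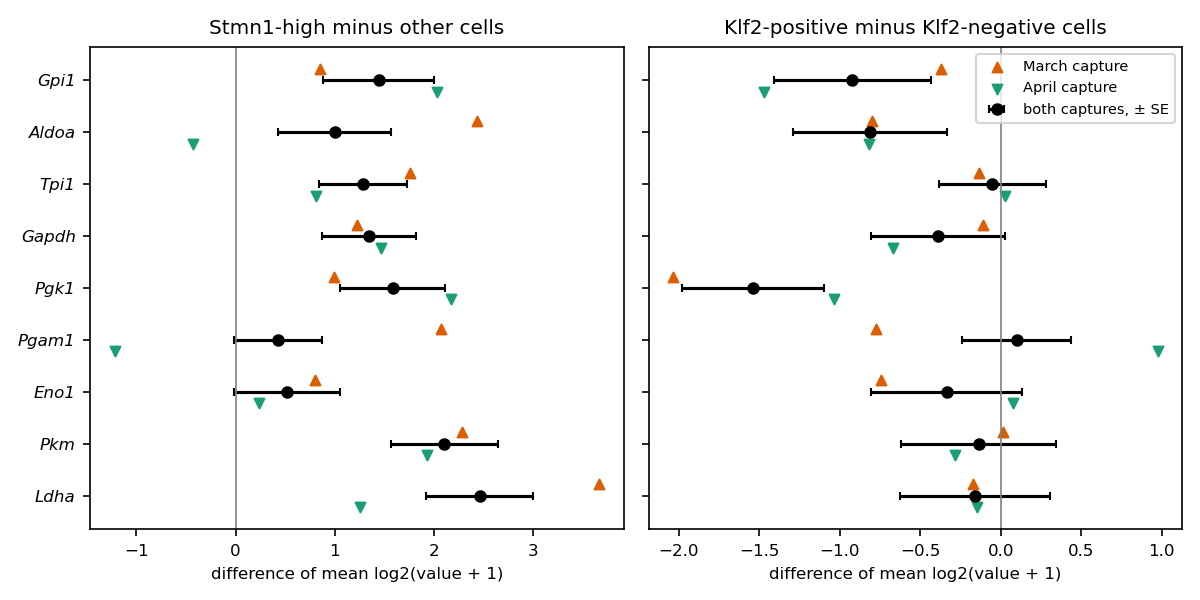
Difference of mean log2(value + 1) for each enzyme (rows, in pathway order) between Stmn1-high and other cells (left) and between Klf2-positive and Klf2-negative cells (right). Circles are the difference over both captures with its SE from limma and triangles the captures; Ldha has the largest of the 9 differences on the left at 2.46 and Pgk1 the lowest on the right at -1.54.

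Other genes of metabolism were read beside the members in the same comparison. None of 10 genes of upper glycolysis and glucose entry passed, 8 were higher, and their median difference of 0.17 was close to that of all genes; Hk2, the inducible hexokinase, differed by 0.58 ± 0.37 and the phosphofructokinase Pfkp by 0.68 ± 0.50. Of 9 genes of lactate and pyruvate fate none passed and 7 were higher (median 0.15), with malic enzyme Me2 at 1.40 ± 0.42. All 17 oxidative phosphorylation genes were higher and none passed (median 1.01), led by Cox5b at 2.05 ± 0.57 and Ndufb5 at 1.93 ± 0.55. Of 7 pentose phosphate genes 6 were higher and none passed (median 0.53). All 21 proliferation genes besides Stmn1 were higher, with a median of 1.20, and 2 passed: the replication helicase subunit Mcm2 (1.91 ± 0.41, limma, adjusted p = 0.0239) and the ribonucleotide reductase subunit Rrm2 (1.76 ± 0.40, adjusted p = 0.0283). Both calls were lost in the 8 settings that left 0 genes past the threshold, among them the 4 runs as blocks, where the lowest limma adjusted p was 0.651. Among regulators none of 9 passed and 7 were higher (median 0.23). The repressor Bcl6 differed by -0.53 ± 0.26, Myc by 0.58 ± 0.38 and the mTORC1 subunit Rptor by 0.32 ± 0.25, and Hif1a, named here for its role although its p was not among the 3 smallest, by 0.57 ± 0.48. None of 9 other genes known as hypoxia targets passed, 5 were higher (median 0.19), and Bnip3 and Mif differed by -0.31 ± 0.14 and 1.26 ± 0.56. Of the isoforms, Eno1b and Eno2 had a row, and 1 was higher.

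The classes also differed in measures that are not of the pathway. The median number of genes detected was 5539 in Stmn1-high and 5158 in other cells in March, and 5091.5 in Stmn1-high and 4905.5 in other cells in April. The summed linear value of the 3 B cell markers had capture medians of 7.10 in Stmn1-high and 5.52 in other cells in March, and 5.24 in Stmn1-high and 5.67 in other cells in April. By run it was far higher in the Stmn1-high cells of Mar1 (50.6, against 6.00 in other cells) and Apr21 (122, against 5.30), and close in Mar17 (7.10, against 5.38) and Apr13 (4.37, against 6.12). The summed linear value of the 2 myeloid markers with a row had capture medians of 1.03 in Stmn1-high and 0.64 in other cells in March. In April these were 1.08 in Stmn1-high and 0.31 in other cells. The myeloid median was higher in Stmn1-high cells in each run, with 2.68 against 0.63 in Apr13. Doublets were not called, and the part of these measures in the differences of the enzymes was not tested. With the number of genes detected regressed out, all 9 enzymes still had a higher mean and the median difference was 0.95, with no gene past the threshold.

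Rank correlation with Stmn1 used the same cells as the classes. Stmn1 was at 0 in 126 of 178 cells, and in March the cells above 0 were the Stmn1-high class itself. The values below thus largely restate the split into classes and are not separate support for it. Gapdh had a mean rho over runs of 0.25, Pkm 0.24 and Ldha 0.23. Pgk1 followed at 0.18, Tpi1 at 0.17, Gpi1 at 0.14, Pgam1 at 0.13, Aldoa at 0.10 and Eno1 at 0.00. The median of all genes was 0.05, and 0.843%, 1.14% and 1.42% of genes were at or above Gapdh, Pkm and Ldha. Gapdh, Pkm, Ldha, Pgk1 and Gpi1 had a positive rho in all 4 runs. The run values went from 0.14 to 0.38 for Gapdh, 0.15 to 0.34 for Pkm, 0.03 to 0.40 for Ldha, 0.11 to 0.27 for Pgk1 and 0.07 to 0.25 for Gpi1. Tpi1 and Aldoa were positive in 3 runs, and Pgam1 and Eno1 in 2. The summed copies of Pgk1 had a mean rho of -0.18 with Stmn1, negative in all 4 runs. Pgk1 summed with its copies had 0.16, with 0.0012 in Mar17.

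Klf2-positive cells, those with a value above 0, were 43 of 82 in March and 46 of 96 in April. Many of these values were low: of the 89 Klf2-positive cells, 36 lay below a linear value of 1 and 53 reached it. Pgk1 had means of 1.75 in March and 2.56 in April in Klf2-positive cells, against 3.78 in March and 3.59 in April in Klf2-negative cells. In March 14 of 43 Klf2-positive cells (32.6%) had Pgk1 at 1 or more, against 26 of 39 Klf2-negative cells (66.7%), and in April 19 of 46 (41.3%) did, against 28 of 50 (56.0%). Pgk1 reached 100 in 5 of 43 and 10 of 46 Klf2-positive cells in March and April, against 10 of 39 and 15 of 50 Klf2-negative cells. Its difference was -1.54 ± 0.44 (SE), with -2.39 in Mar1, -1.89 in Mar17, -1.85 in Apr13 and -0.42 in Apr21. These are values of the contrast that brought Pgk1 to notice. Over all genes 0 of 10794 passed by limma, a share of 0%, and 698 were at an unadjusted p under 0.05.

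The copies of Pgk1 ran the other way, as they also did with Stmn1, so this was not particular to Klf2. Within runs the mean rho with Klf2 was -0.26 for Pgk1 (-0.46, -0.25, -0.26 and -0.06 in Mar1, Mar17, Apr13 and Apr21), 0.19 for its summed copies and -0.22 for the sum of all 3 rows. With the copies added, the difference between Klf2-positive and Klf2-negative cells was -1.09 ± 0.47 in place of -1.54. In March the sum was at 1 or more in 33 of 43 Klf2-positive cells (76.7%), against 33 of 39 Klf2-negative cells (84.6%). In April these were 44 of 46 Klf2-positive cells (95.7%), against 48 of 50 Klf2-negative cells (96.0%). At 100 or more the sum was found in 6 of 43 and 11 of 46 Klf2-positive cells in March and April, against 10 of 39 and 16 of 50 Klf2-negative cells. Nearly all April cells were at 1 or more for the sum, which leaves little room for a difference there, and at 100 or more the counts for the sum were close to those for Pgk1 alone.

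The other 8 enzymes are given by Klf2 class as a description too. Gpi1 differed by -0.92 ± 0.49, Aldoa by -0.81 ± 0.48, Gapdh by -0.39 ± 0.42 and Eno1 by -0.34 ± 0.47 between Klf2-positive and Klf2-negative cells. Ldha (-0.16 ± 0.47), Pkm (-0.13 ± 0.48), Tpi1 (-0.05 ± 0.33) and Pgam1 (0.10 ± 0.34) were nearer to 0. Aldoa had nearly the same difference in both captures, -0.80 in March and -0.82 in April. In rank correlation with Klf2, Aldoa had a mean rho of -0.16, Gapdh -0.15 and Tpi1 -0.11, and the remaining 5 besides Pgk1 lay between -0.05 and -0.01. The 3 mitochondrial cells were all Klf2-negative; without them Pgk1 differed by -1.59 and Gapdh by -0.58.

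Cells were also classed by Cd69, an early activation marker, and by Cxcr5, the receptor that brings follicular helper T cells to B cell follicles, again by the upper 25% of each run. By Cd69 no gene passed limma (0%; 399 at an unadjusted p under 0.05), and the members had a median difference of 0.16, with 0.63 in March and -0.15 in April. Aldoa had the highest, 1.23 ± 0.62. By Cxcr5 no gene passed either (0%; 643 at an unadjusted p under 0.05), and 8 of 9 members were higher in Cxcr5-high cells with a median of 0.85, against 0.07 over all genes, of which 59.2% were higher. In the same cells all 7 CD4 T cell markers were higher (median 0.71), as were all 7 genes of the actin and tubulin list (0.51). Gapdh had means of 8.83 in Cxcr5-high cells and 7.78 in other cells, a difference of 1.05 ± 0.45, and Tpi1 differed by 0.97 ± 0.40; neither passed (limma, adjusted p of 0.827 and 0.809). Pgk1 changed sign between the captures, with 1.42 in March and -2.11 in April.

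The promoters of the members were searched for 3 short motifs, on both strands and over the 300 bases from 250 before to 50 after each annotated start (RefSeq, GRCm38.p6; 15 windows for the 9 genes, some overlapping). ACGTG, the core of the hypoxia-inducible factor motif, was found in 7 of 15 windows and in 6 of 9 members (all but Eno1, Tpi1 and Gpi1), and in 19.6% of all 32851 windows. CACGTG, which contains ACGTG on both strands and is the letters bound by Myc, was found in 1 window, that of Ldha, and in 7.15% of all windows. CACCC, the core of motifs bound by Klf factors, was in 10 of 15 windows and in 57.5% of all. The 250 bases before the start are shown for Pgk1, the member lowest against Klf2 (chrX:106186850-106187099, + strand), and for Ldha, the member that passed against Stmn1 (chr7:46845554-46845803, + strand), with ACGTG or its reverse complement CACGT in capitals. A match is a description of letters and not of binding.
Pgk1: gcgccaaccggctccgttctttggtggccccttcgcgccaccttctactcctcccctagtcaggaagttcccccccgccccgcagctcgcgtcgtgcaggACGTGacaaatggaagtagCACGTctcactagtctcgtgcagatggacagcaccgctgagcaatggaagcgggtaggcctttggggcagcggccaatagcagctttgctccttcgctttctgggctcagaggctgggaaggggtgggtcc
Ldha: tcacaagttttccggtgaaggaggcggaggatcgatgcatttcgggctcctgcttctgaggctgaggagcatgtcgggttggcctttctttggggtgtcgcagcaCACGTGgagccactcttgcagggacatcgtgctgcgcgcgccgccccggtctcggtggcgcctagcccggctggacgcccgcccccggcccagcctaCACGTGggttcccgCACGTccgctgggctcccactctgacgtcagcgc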

How the data were processed

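Single-cell RNA was measured in sorted CD4 T cells. The authors deposited 1 table of log2 values, per gene and cell. Build mm10 is named per the submitters' processing notes; the aligner, the counting program and any length or depth scaling were not given in the sources used here. The reading as log2(TPM-like value + 1) comes from the values. All columns were mapped to a capture and 0 were left unused. Of 12432 Ensembl IDs, 12163 matched a symbol; coordinates are from GENCODE vM21.

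The members and lists were chosen with earlier results of these data known. All 9 members are named; of other lists, genes past the threshold or, with none, up to 3 with the smallest p; for the score, the 10 highest and 5 lowest genes with the same sign in every run. Copies were found with BLAST+ 2.17.0 (at least 90% identity over 300 bases) against each member's longest open reading frame.

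Classes were compared with limma 3.58.1 (R 4.3.3), with a mean-variance trend, on 4 class means (2 captures by 2 classes of cells). The capture was a block, since both classes of a capture come from the same sample; this leaves 1 residual degree of freedom per gene. Tests are two-sided and cover genes above 0 in 10% of cells or more, at an adjusted p of 0.05. Differences are of mean log2(value + 1), zeros included, and understate changes of low genes. The code was tested on simulated data. P-values and SEs rest on the spread between captures, which may be technical, after limma moderated it toward a trend over all genes. An SE can therefore be small for a gene whose captures disagree. By Stmn1, Pgam1 differed by 2.07 in March and -1.22 in April, with an SE of 0.44. No cell was left out, and doublets were not called. Identical values were found in 0 pairs of cells. Read depth per cell is unknown; intervals are exact Clopper-Pearson 95% and cover counting error only. Alternatives changed the class limit, block, pseudocount, filter and scaling. Python 3.11.15, pandas 2.3.3, numpy 2.4.6 and SciPy 1.17.1 were used.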

Additional observations from a re-analysis of the deposited data

How the results depend on the processing

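Stmn1: the members' median difference, 1.34, was 0.80 with a pseudocount of 10, 0.61 with averaged linear values, 0.89 after quantile normalization and 0.95 with genes detected regressed out, and 1.25 to 1.76 leaving out a capture. Ldha passed with a pseudocount of 10, no filter, quantile normalization and copies summed. The number of members past the threshold was 0, as was the number of genes, with no replicate block, 4 runs as blocks, a class at a linear value of at least 1 or above 0, averaged linear values, no mitochondrial cells, no Mar1 cells and genes detected regressed out; 6 genes passed with a pseudocount of 10 and 3 after quantile normalization, against 19. The cause was not tested. Averaged linear values reversed Gpi1 (-0.070), Aldoa (-0.076) and Pgam1 (-1.67), and quantile normalization moved the median of all genes to -0.04 and left 45.4% higher. Leaving out a capture, Aldoa ran from -0.43 to 2.43 and Pgam1 from -1.22 to 2.07.

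Klf2: the median, -0.34, was -0.15 with 4 runs as blocks, -0.61 and -0.51 with a class at 1 or the upper 25%, -0.20 with a pseudocount of 10, -0.087 with averaged linear values, -0.40 after quantile normalization, -0.48 without mitochondrial cells and -0.22 without Mar1, and -0.37 to -0.28 leaving out a capture; with the upper 25%, 1 gene passed. The median rho with Klf2 was -0.085 without mitochondrial cells and ran from -0.11 to -0.035 leaving out a run.

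Cxcr5: the median, 0.85, was 1.03 with 4 runs as blocks, 0.51 and 0.25 with a class at 1 or above 0, 0.54 with a pseudocount of 10, 0.36 with averaged linear values, 0.69 after quantile normalization, 0.52 without Mar1, 0.62 with genes detected regressed out and 0.71 with copies summed, the last an alternative chosen after seeing the data, and 0.87 to 1.07 leaving out a capture; with a class at 1, 4 genes passed. Gpi1 (-0.42) and Aldoa (-0.17) reversed with a class above 0, and Pgk1 was 0.17 with a class at 1, 0.16 above 0 and -2.11 to 1.42 leaving out a capture. Eno1 was -0.16 after quantile normalization, -0.0078 without mitochondrial cells, -0.025 with genes detected regressed out or copies summed and -0.59 to 0.72 leaving out a capture.

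Cd69: Tpi1 was -0.17 with a class above 0. Pgk1 was -0.13 after quantile normalization, -0.017 with genes detected regressed out and -0.15 to 0.46 leaving out a capture, and Pgam1 ran from -0.20 to 0.91. Eno1 was -0.16 with averaged linear values, -0.064 after quantile normalization, -0.047 without Mar1 and -0.47 to 0.63 leaving out a capture. Pkm was 0.10 with a class at 1 and 0.60 above 0. Ldha was 0.029 with 4 runs as blocks, 0.32 at 1, 0.62 above 0 and -1.17 to 0.57 leaving out a capture.

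The median level, 6.18, was 9.16 as the log2 of mean linear values. With 2 captures and unknown read depth, smaller differences are not detectable, and a value of 0 is not absence.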
